A study of Mus musculus with 36 samples.

Results

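The kinesin genes are the 42 features whose symbol is Kif with a number and at most 1 letter, or Kifc with a number, out of 40205 features counted in extracellular vesicles (EVs) and in the mouse fetal neural stem cells (NSCs) that released them. The members were found by symbol, but the family itself was chosen by measured values, the higher counts of the transport kinesin Kif21a in EVs at the high ethanol dose, so that contrast is given as a description and is not tested here. By textbook role, 12 members were grouped as mitotic, 17 as transport, 7 as ciliary and 6 as other. Every member had at least 1 count in an EV library and in a cell library, and 40 of the 42 passed the filter on low counts for the comparison of EVs with cells. The remaining members, Kif2b and Kif12, had at most 1 and 3 counts in any library.

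Kinesins are motor proteins that use ATP to move along microtubules or to take tubulin off their ends. Mitotic kinesins build and shorten the spindle, move chromosomes and complete cytokinesis, and their mRNAs are made mainly in dividing cells. Transport kinesins carry vesicles, mitochondria, mRNA and ciliary building blocks, and several of them are neuronal. The sequenced material was RNA, so the values are levels of kinesin transcripts and not of motor proteins.

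The NSCs came from the dorsal telencephalon of fetuses at gestational day 12.5 and grew as neurospheres. The labels give the strain as C57BL/6J and the genotype as WT, while the methods name the mice C57BL/6J (Ai14), a line that carries a Cre-dependent fluorescent reporter, so all groups share that background. Tissue was pooled by sex within each of 3 pregnancies (sets 3, 4 and 5), which gave 3 female and 3 male cultures, used at passages 7 to 10. Each culture was kept for 5 days at 0 (control), 120 or 320 mg/dL ethanol, and each condition gave 1 cell library and 1 library of the ultracentrifuged EVs, 18 of each kind. The 3 doses of a culture, and its cells and EVs, share their source cells and are not independent cultures, so p-values that treat them as such measure spread between libraries. Total counts ranged from 959217 to 5509952 in EVs and from 26566061 to 55282322 in cells (0.959 to 5.51 and 26.6 to 55.3 M). A kinesin total of 873 to 11452 counts stood behind the EV values and 33105 to 140156 behind the cell values, so single members were counted far less precisely in EVs. Of 8 NSC markers, 7 had a median of at least 10 counts in cells, and Sox2 was listed at 0 in every library. Microglial markers summed to at most 0.193 CPM (counts per M counts, with TMM-scaled library totals) in cells and 10.3 in EVs, and endothelial markers to at most 1.82 and 13.6. Neuronal markers summed to 433 to 906 CPM in cells, nearly all of it Map2, and to 206 to 382 in EVs.

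The mitotic kinesins rose and fell together from culture to culture in cells, and most of their promoters share a short sequence. The cell cycle homology region (CHR), an element known from promoters of genes expressed in G2 and mitosis, was searched as the letters TTTGAA or TTCGAA on both strands. The windows were the 300 bases from 250 before to 50 after each RefSeq start on GRCm38.p6, a build used for these windows alone. A window was held for 11 mitotic members, and 10 of them (90.9%) had a match, beside 5254 of 27025 genes (19.4%). None of 11 transport members with a window had one, against 2 of 5 ciliary and 1 of 5 other members. The count depends on the start site, since windows at GENCODE canonical starts on GRCm39 held a match in 7 of 12 mitotic and 0 of 17 transport members, beside 18.8% of 21729 genes. The letters CCAAT, a second element often found in such promoters, were in 7 of 11 mitotic and 3 of 11 transport windows, beside 37.9% of all genes, and can share at most 1 base with the CHR letters.

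Because their match lies near the start, 6 mitotic promoters are shown, from 100 bases before the start to 30 bases after it, with the CHR letters in capitals. Kif11, the kinesin-5 that pushes spindle poles apart, is read from chr19:37376282-37376411 (plus strand). Kif15, which assists it, is read from chr9:122950981-122951110 (plus strand). Kif18b, a kinesin-8 of astral microtubule ends, is read from chr11:102925095-102925224 (minus strand). Kif20b, a kinesin-6 of the midbody, has 2 adjoining matches and is read from chr19:34922258-34922387 (plus strand). Kif23, the motor subunit of centralspindlin, is read from chr9:61946770-61946899 (minus strand). Kifc1, the minus-end motor that gathers spindle poles, is read from chr17:33890604-33890733 (minus strand).
Kif11: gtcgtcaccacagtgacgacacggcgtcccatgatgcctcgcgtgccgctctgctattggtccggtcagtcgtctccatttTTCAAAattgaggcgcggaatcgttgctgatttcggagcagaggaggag
Kif15: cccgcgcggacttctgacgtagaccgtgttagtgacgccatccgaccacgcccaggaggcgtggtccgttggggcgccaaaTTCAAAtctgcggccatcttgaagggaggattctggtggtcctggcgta
Kif18b: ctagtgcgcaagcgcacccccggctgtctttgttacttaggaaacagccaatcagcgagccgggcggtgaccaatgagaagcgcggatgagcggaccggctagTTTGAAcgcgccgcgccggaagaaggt
Kif20b: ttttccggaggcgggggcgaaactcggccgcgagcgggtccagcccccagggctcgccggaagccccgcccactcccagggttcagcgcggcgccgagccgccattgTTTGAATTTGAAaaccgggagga
Kif23: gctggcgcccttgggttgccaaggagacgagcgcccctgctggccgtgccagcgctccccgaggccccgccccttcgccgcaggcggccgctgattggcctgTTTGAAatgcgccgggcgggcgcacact
Kifc1: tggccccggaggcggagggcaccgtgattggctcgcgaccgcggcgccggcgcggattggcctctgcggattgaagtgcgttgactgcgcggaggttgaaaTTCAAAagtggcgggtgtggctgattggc

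For comparison, the mitotic member without a match, Kif18a at chr2:109280638-109280767 (plus strand), and the transport members Kif1c at chr11:70700448-70700577 (plus strand) and Kif21a at chr15:91049922-91050051 (minus strand) show no capitals. A missing match says only that these letters are not in the window.
Kif18a: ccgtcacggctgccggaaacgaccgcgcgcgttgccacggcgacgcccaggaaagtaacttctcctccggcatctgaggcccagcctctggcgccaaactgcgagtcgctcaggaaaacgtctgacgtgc
Kif1c: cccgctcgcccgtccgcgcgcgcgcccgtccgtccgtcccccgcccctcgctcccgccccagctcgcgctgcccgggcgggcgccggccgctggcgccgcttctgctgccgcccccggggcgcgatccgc
Kif21a: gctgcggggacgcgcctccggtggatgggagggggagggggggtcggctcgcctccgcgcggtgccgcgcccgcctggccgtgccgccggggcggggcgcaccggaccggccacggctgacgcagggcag

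In cells, transport kinesins were the more abundant group. Per length, as mean CPM per kb of exon over 18 cell libraries, the leading transport members were Kif5b (17.8), the ubiquitous kinesin-1 heavy chain, and Kif1b (16.7), a kinesin-3 that carries mitochondria and synaptic vesicle precursors. Kif21a (9.96), a kinesin-4 that slows microtubule growth, Kif1a (9.89), a carrier of synaptic vesicle precursors, and Kif3a (7.67), a kinesin-2 subunit, followed. The leading mitotic members on this scale were Kif2c (6.85), which takes tubulin off centromeric microtubule ends, and Kif11 (6.28), ahead of Kif18a (3.46), Kif23 (3.38) and Kif18b (3.35). In EVs the order per length was another one, with Kif1c, a kinesin-3 of vesicles and mRNA, at 110 CPM per kb, then Kif2c (17.7), Kif14 (16.8), a kinesin of the midbody, and Kif3b (12.6), the motor that pairs with Kif3a.

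EVs and cells were compared to ask which transcripts had higher or lower levels in EV RNA than in RNA of the cells of origin. In the methods, cell RNA had high RNA integrity numbers, which could not be accurately calculated for EV RNA. The kits for RNA isolation also differed, miRNeasy micro for EVs and miRNeasy mini for cells. RNA integrity and kit therefore cannot be told apart from location in these comparisons. Of 40 members tested by edgeR's quasi-likelihood test with Benjamini-Hochberg adjustment, 19 were higher in EVs, 13 were lower and 8 did not pass. Among all 15281 genes 38.4% were called higher and 42.2% lower, 80.5% in all, so the share of members called was close to the background. The median log2 fold change was 0.47 for members and -0.08 for all genes. EVs and cells did not overlap in any library for 11 of the 40 members, beside 23.8% of all genes. Every EV library lay above every cell library for 6 of them (9.04% of all genes) and below for 5 (14.8%). With library totals in place of TMM scaling, the median of all genes moved to -0.88. Then 9 members were higher and 19 lower, and 8 members called higher with TMM scaling turned. The share of all genes called with library totals is not given, so these counts are not read as results about members. The median of members stayed above that of all genes by 0.54, against 0.55 with TMM. The log2 fold changes by role show the spread within each group, with members on both sides of 0 in every role.

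**Figure D1:**
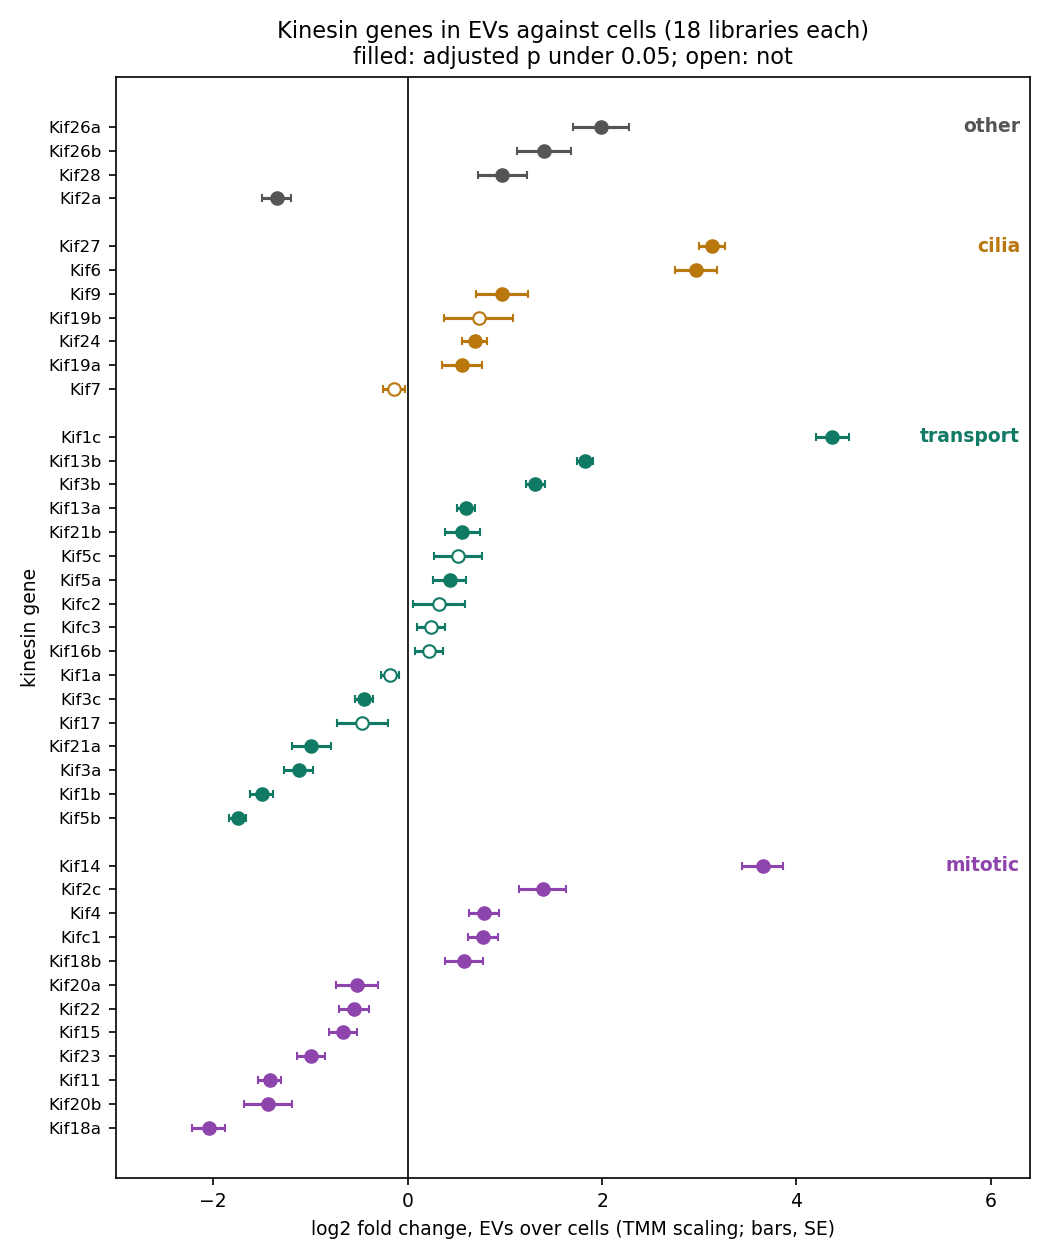
Log2 fold change of each tested kinesin gene in EVs against cells, by role, from the fit over 18 EV and 18 cell libraries (bars, SE). Filled points passed an adjusted p of 0.05, and they run from -2.05 for Kif18a to 4.37 for Kif1c.

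The largest difference of the family was that of Kif1c (chr11:70591046-70622790 on GRCm39). Kif1c measured 29.7, 40.2 and 52.8 CPM (lowest, median and highest of 18 libraries) in cells, and 270.0, 870.0 and 1531 CPM in EVs. No EV library reached down to the cells, and the log2 fold change was 4.37 ± 0.17 (SE, edgeR adjusted p 3.0e-22), a 20.7-fold higher level in 6 of 6 cultures. Kif1c made up 40.9% of all kinesin counts in the median EV library (15.5 to 55.5%), against 2.48% in the median cell library (1.83 to 3.23%). Its exons overlap the gene Inca1 on the other strand over 4.39% of their length.

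With TMM scaling, the median sum over transport kinesins was higher in EVs with Kif1c and lower without it. All 17 summed to 1037 to 2384 CPM in EVs (median 1711) and 956 to 1641 CPM in cells (median 1221), with overlap. The sum over all kinesins turned with library totals, with medians of 1760 per M counts in EVs and 2237 in cells. With TMM scaling its medians were 2246 CPM in EVs and 1646 CPM in cells. Without Kif1c the sum was 633 to 974 CPM in EVs, with a median of 831, and 926 to 1595 CPM in cells, with a median of 1177. The kinesin-1 and kinesin-3 motors that lead in cells were lower in EVs. Kif5b measured 194, 227 and 291 CPM in cells and 44.8, 62.6 and 94.6 CPM in EVs, without overlap (log2 fold change -1.75 ± 0.09, adjusted p 3.6e-19). Kif1b measured 273, 383 and 625 CPM in cells and 84.9, 152 and 196 CPM in EVs, also without overlap (-1.504 ± 0.118, adjusted p 4.9e-14). As a share of kinesin counts, Kif1b had a median of 25.1% in cells and 6.10% in EVs, and Kif5b 13.9% and 3.10%. Kif13b, a kinesin-3 of membrane cargo, was higher at 44.6 to 106 CPM in EVs against 13.7 to 30.5 CPM in cells (1.83 ± 0.08).

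**Figure D2:**
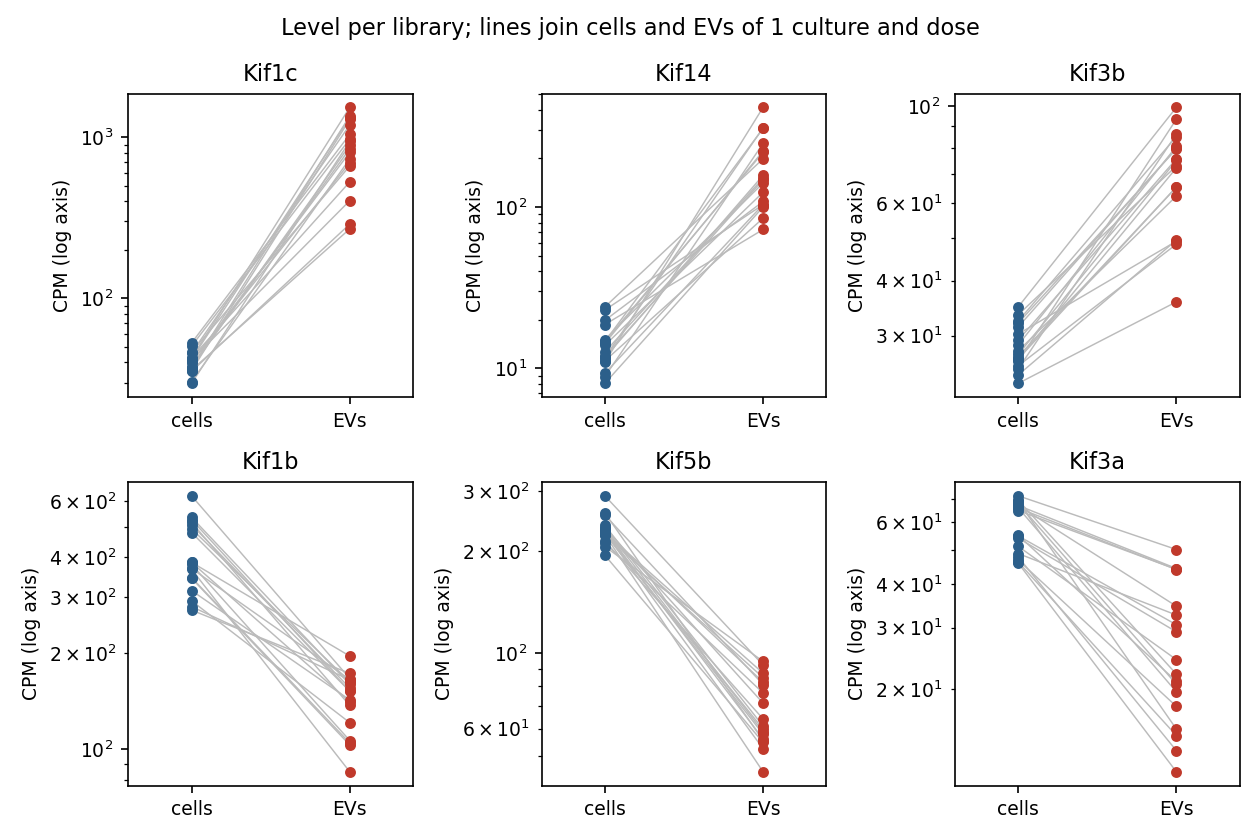
CPM of 6 kinesin genes in each library on a log axis, with lines joining the cells and EVs of 1 culture and dose (18 pairs). Kif1c, Kif14 and Kif3b lie above their cells in all 18 pairs, and Kif1b, Kif5b and Kif3a lie below.

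Kif3a (chr11:53458168-53495071) and Kif3b (chr2:153133325-153175310), whose proteins form 1 heterodimer with the adaptor Kifap3, differed in opposite directions. Kif3a measured 45.8, 59.9 and 71.3 CPM in cells and 11.6, 23.2 and 50.1 CPM in EVs (log2 fold change -1.12 ± 0.15, adjusted p 2.0e-08), with the highest EV library above the lowest cell library. Kif3b measured 23.4, 27.4 and 34.9 CPM in cells and 35.8, 74.1 and 99.3 CPM in EVs (1.31 ± 0.10, adjusted p 8.8e-15). Kifap3 was lower, as Kif3a was (-0.99 ± 0.12), and the third motor of the group, the neuronal Kif3c, was lower as well (-0.45 ± 0.09), with 42.3% of its exon bases shared with genes on the other strand. A ratio of 2 genes within a library does not depend on how libraries are scaled. The log2 ratio of Kif3b to Kif3a counts was -1.52 to -0.42 in cells and -0.30 to 2.57 in EVs, higher in EVs in 18 of 18 pairs, with medians of -1.13 and 1.74.

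The same measure separated other members of common subfamilies, pairs that were chosen after their values were seen. The log2 ratio of Kif1c to Kif1b went from -4.05 to -2.78 in cells to 0.56 to 3.66 in EVs. That of Kif5c, a neuronal kinesin-1, to Kif5b went from -4.84 to -2.80 in cells to -3.41 to 0.17 in EVs. That of Kif21b to Kif21a, both kinesin-4, went from -1.504 to 0.05 in cells to -0.04 to 1.68 in EVs. Each of these ratios was higher in EVs in all 18 pairs, although the ranges of Kif5c:Kif5b and Kif21b:Kif21a overlapped between libraries of different cultures. Kif21a itself was lower in EVs (-0.99 ± 0.20, adjusted p 4.0e-05) and Kif21b higher with TMM scaling (0.56 ± 0.18), a direction that library totals turned (-0.21).

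**Figure D3:**
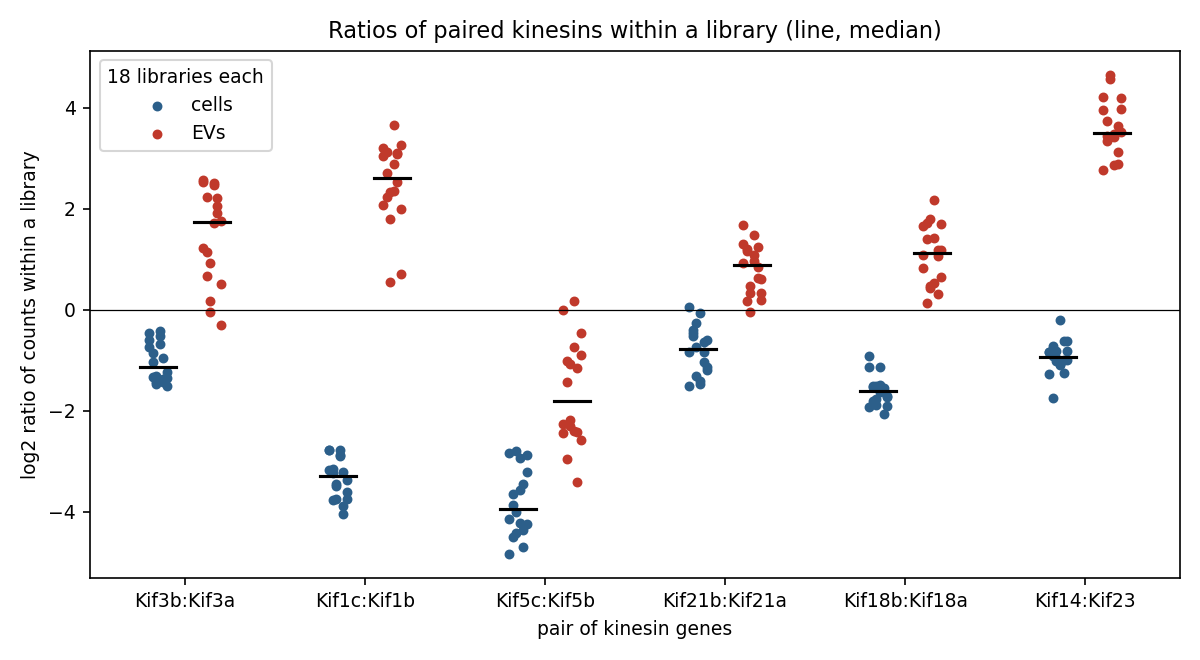
Log2 ratio of the counts of paired kinesin genes within each library (0.5 added to each count), with the median as a line, for 18 cell and 18 EV libraries. Every ratio is higher in EVs than in the cells of the same culture and dose, and the median of Kif3b:Kif3a moves from -1.13 to 1.74. The pairs were chosen after their values were seen, with the member relatively higher in EVs first, so their shared direction is no test.

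Mitotic kinesins were split as well, with 5 of 12 higher and 7 lower in EVs and none that failed the test. Among all genes 38.4% were higher and 42.2% lower. Kif14 (chr1:136394081-136459249) measured 8.09, 13.3 and 24.1 CPM in cells and 72.6, 149 and 415 CPM in EVs, without overlap. Its log2 fold change was 3.65 ± 0.21 (adjusted p 8.9e-18), a 12.6-fold higher level, and it made up 6.57% of kinesin counts in the median EV library against 0.825% in cells. Kif2c was higher too (1.39 ± 0.24), at 24.9 to 201 CPM in EVs and 11.4 to 48.7 CPM in cells. Kif4, a chromokinesin, Kifc1 and Kif18b were higher with TMM scaling (0.79, 0.78 and 0.58) and below 0 with library totals (-0.08, -0.04 and -0.26). The reads of Kifc1 may be shared with its near-identical copy Kifc5b, which had 101 to 541 counts in cells and 4 to 47 in EVs.

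Kif18a and Kif11 were among the lower mitotic members. Kif18a, the kinesin-8 that damps chromosome movements, measured 22.7, 32.3 and 78.5 CPM in cells and 5.09, 8.94 and 16.5 CPM in EVs (-2.05 ± 0.17). Kif11 measured 38.3, 49.9 and 104.5 CPM in cells and 17.1, 21.3 and 29.2 CPM in EVs (-1.42 ± 0.12). Neither member overlapped between EVs and cells. Kif20b (-1.44 ± 0.25) and Kif23 (-0.99 ± 0.14) were lower in 6 of 6 cultures, Kif15 (-0.66 ± 0.14) and Kif22 (-0.55 ± 0.15) in 5 of 6, and Kif20a (-0.52 ± 0.22) in 6 of 6. Exons of Kif20a overlap Brd8 and Cdc23 on the other strand, and with the strand setting of the counting not given in the sources used here, reads of the pairs cannot be told apart. Within a library, the log2 ratio of Kif18b to Kif18a was -2.07 to -0.92 in cells and 0.13 to 2.18 in EVs, and that of Kif14 to Kif23, both motors of cytokinesis, -1.74 to -0.19 and 2.77 to 4.66.

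Of 7 ciliary kinesins, 5 were higher in EVs and none was lower, beside 38.4% of all genes higher and 42.2% lower. Kif27, a kinesin-4 of motile cilia, measured 0.70, 1.07 and 1.497 CPM in cells and 6.28, 9.12 and 14.4 CPM in EVs (3.13 ± 0.13). Kif6, a kinesin of motile cilia, measured 0.79 to 2.20 CPM in cells and 4.37 to 29.9 CPM in EVs (2.97 ± 0.21). Both were separate in all libraries, and the EV values rested on 5 to 46 and 10 to 62 counts. Kif9, Kif24 and Kif19a were higher by 0.97, 0.69 and 0.56, of which Kif24 and Kif19a turned with library totals (-0.12 and -0.23), and Kif19b (0.73) and the hedgehog signalling kinesin Kif7 (-0.14) did not pass. Markers of multiciliated cells summed to 2.14 to 5.81 CPM in cells and 2.37 to 7.87 CPM in EVs, and their part in the result was not tested. Among other members, Kif26a (1.99 ± 0.29), Kif26b and Kif28 were higher, and Kif2a, a kinesin-13 of neurites and spindle poles, was lower (-1.35 ± 0.15), with exons that overlap Dimt1.

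Members with high levels in cells tended to be the lower ones in EVs, as other genes did. Across the 40 members the Spearman correlation of log2 fold change with mean CPM in cells was -0.54, beside -0.50 across 14271 genes, as a description over genes that share libraries. With exon length it was -0.17 for members and -0.04 for all. The cell libraries enter both quantities, as the level and as the base of the fold change. That alone leans the correlation toward negative values. Low members also rest on few EV counts.

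Genes that work with kinesins were called in both directions as well, beside 38.4% of all genes higher and 42.2% lower. Of 10 tested partners of transport kinesins, 4 were higher and 2 lower in EVs, with Trak2 (2.85 ± 0.16) and Klc1 (1.60 ± 0.10), adaptors of kinesin-1, leading one side, and Kifap3 and Mapk8ip3 (-0.71 ± 0.11) the other. Of 11 genes of dynein and dynactin, the motor of the opposite direction, 2 were higher, Dync1i1 (2.64 ± 0.18) and Dynll2 (1.59 ± 0.13), and 7 lower, among them Dync1i2 (-1.56 ± 0.11) and Dctn4 (-1.41 ± 0.07). Of 16 other mitotic genes, 4 were higher, led by Racgap1 (0.70 ± 0.11), the partner of Kif23, and Cdca8 (0.70 ± 0.13), and 8 lower, led by Top2a (-1.998 ± 0.143) and Ect2 (-1.40 ± 0.16). The median log2 fold changes were 0.27, -0.64 and -0.34 for the lists in that order, beside -0.08 for all genes.

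Across the 18 cell libraries the 12 mitotic kinesins varied together. Pairwise Pearson correlations of log2 CPM had a median of 0.854 and ran from 0.536 to 0.971, and after subtracting each culture's mean the median was 0.456. The 17 transport kinesins had a median of 0.170 (-0.871 to 0.918). In EV libraries the medians were 0.073 for mitotic and 0.032 for transport members. When every library was thinned to the smallest total, without TMM scaling, the median for mitotic members was 0.734 in cells, below the unthinned value. In EVs it was 0.257, above the unthinned value. The unthinned values used TMM scaling, so depth and scaling changed together and their parts cannot be told apart. These are descriptions over libraries that share cultures.

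In cells 1 culture stood apart. In bulk RNA, fewer cells of a type and less RNA per cell cannot be told apart. The 12 mitotic kinesins summed to 417 to 521 CPM in the 3 cell libraries of the male culture of set 3 and to 158 to 309 CPM in the other 15 cell libraries. The 16 other mitotic genes summed to 1114 to 1463 CPM in that culture and 527 to 787 CPM elsewhere. Neuronal markers were lowest in the cells of that culture (433 to 462 CPM, against 527 to 906 CPM) and NSC markers were 2752 to 3463 CPM (1713 to 3113 CPM elsewhere), and their part in the mitotic values was not tested. Astrocyte markers were 162 to 232 CPM in its cells (14.6 to 212 CPM elsewhere) and 84.6 to 130 CPM in its EVs (10.9 to 61.8 CPM elsewhere). Markers of the oligodendrocyte lineage were 305 to 482 CPM in its cells (158 to 413 CPM elsewhere) and 343 to 362 CPM in its EVs (99.9 to 256 CPM elsewhere). The mitotic sum of its EVs did not stand apart, at 252 to 400 CPM against 260 to 616 CPM in the other EV libraries. The highest mean mitotic sum in EVs was that of the male culture of set 5 (558 CPM, 451 to 616 CPM), whose cells were lowest (158 to 196 CPM). Its EV range overlapped that of other cultures, with up to 499 CPM in the female culture of set 5. Kif14 was a large part of these sums, at 248, 415 and 307 CPM at 0, 120 and 320 mg/dL. Without Kif14 the sums in those EVs were 203, 193 and 309 CPM in the same order. In the other EV libraries the sums without Kif14 ran from 151 to 342 CPM. Without the male culture of set 3, the median correlation in cells was 0.617. Transport kinesins had another order, from 956 to 1059 CPM in the female culture of set 3 to 1452 to 1641 CPM in the male culture of set 5.

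**Figure D4:**
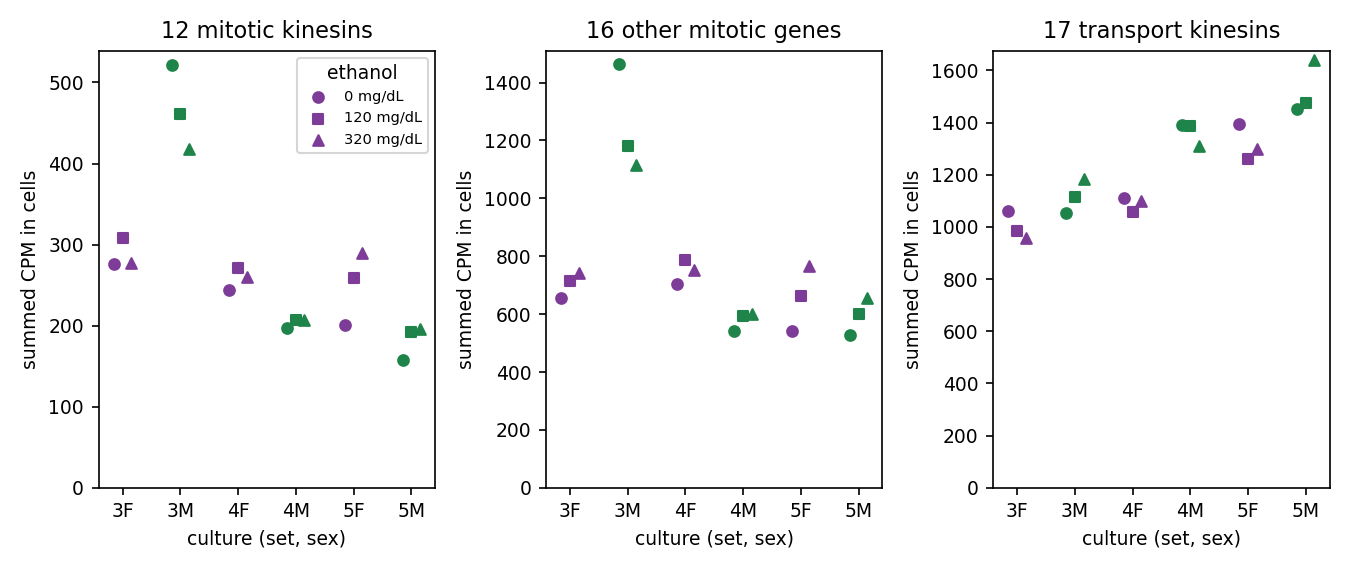
Summed CPM in cells by culture (set number and F, female, or M, male; purple, female; green, male) for 12 mitotic kinesins, 16 other mitotic genes and 17 transport kinesins, with 1 marker per ethanol dose. The male culture of set 3 lies above all others in the first 2 panels and not in the third.

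Females and males were compared within EVs and within cells, with 9 libraries from 3 cultures on each side. In EVs, 2 of 34 members were called, beside 11.1% of 11037 genes (7.03% higher and 4.06% lower in females), and both were lower in females in 3 of 3 pregnancies. Kif18b measured 11.3, 14.9 and 18.9 CPM in female EVs and 17.3, 24.0 and 33.2 CPM in male EVs (log2 fold change -0.62 ± 0.15, adjusted p 0.020). Kif13b measured 44.6, 66.6 and 86.3 CPM in female EVs and 74.1, 92.0 and 106 CPM in male EVs (-0.41 ± 0.12, adjusted p 0.043). The ranges of both overlapped, and neither call held with library totals, with counts summed over doses, without set 5, or without the 6 EV libraries under 2 M counts. With the pregnancy as a block 7 members were called, beside 27.1% of genes. Kif11, Kif20b, Kif26b and Kif3a were then higher in females, and Kif1c joined Kif18b and Kif13b as lower (-0.78 ± 0.18, adjusted p 0.0067).

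In cells none of 40 members was called by sex, beside 5.83% of 17052 genes (3.2% higher and 2.63% lower in females), while 9 had an unadjusted p under 0.05, as 3796 of all genes did, and DESeq2 called 4. Of the 17 transport kinesins, 16 had a lower mean in females, with a median log2 fold change of -0.32, beside -0.01 for all genes. This was not particular to them, since 11 of 12 mitotic kinesins and all 16 other mitotic genes were lower too. With the pregnancy as a block 7 of 40 members were called, all lower in females, beside 17.3% of genes called in both directions together. The share of members called was close to that background, and the fit counts the 3 doses of a culture as replicates. Of the 7, 6 were transport kinesins. These were Kif21a (-0.75 ± 0.12, adjusted p 0.0010), Kif1b (-0.43 ± 0.08), Kif1a, Kif3c, Kif13b and the neuronal kinesin-14 Kifc2, beside Kif2a (-0.58 ± 0.12). Summed over doses, with 3 cultures a sex, none was called. Mitotic kinesins had a lower median in females (-0.21), but without set 3, which holds the culture with the highest mitotic levels, the median was 0.28 and 5 members were called higher. The shares of all genes called without set 3 and by DESeq2 are not given, so those calls are not read as results about members. Neuronal markers summed to 527 to 828 CPM in female cells and 433 to 906 CPM in male cells, and their part in the transport values was not tested.

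Ethanol doses were compared with control within cultures. At 120 mg/dL none of 40 members was called, beside 0 of 17792 genes (0%), with no member at an unadjusted p under 0.05, beside 444 genes, and none called by DESeq2. At 320 mg/dL none was called, beside 7 genes (0.0393%, with 0.0225% higher and 0.0169% lower), with 4 members at an unadjusted p under 0.05, beside 1525 of the 17792 genes, and none called by DESeq2. Both doses share the control libraries. Mean mitotic sums were 266 ± 131 CPM (SD, n = 6) in control cells, 283 ± 97.3 at 120 mg/dL and 274 ± 79.5 at 320 mg/dL. Transport sums were 1244 ± 187, 1213 ± 194 and 1248 ± 234 CPM in the same order. The members closest to a call at 320 mg/dL were the mitotic Kif15 (0.24 ± 0.08, adjusted p 0.41) and Kif18a (0.29 ± 0.11, adjusted p 0.49), each with a higher mean in 5 of 6 cultures. For a difference of the ethanol response between sexes at 320 mg/dL in cells, 0 of 40 members were called, beside 0% of 18725 genes, and none with DESeq2. An unadjusted p under 0.05 was found for 8 members and for 3368 genes.

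Kif21a (chr15:90817437-90934218, minus strand) is the member whose EV values led to the choice of the family. In control EVs it measured 28.8, 33.1 and 61.6 CPM in the female cultures of sets 3, 4 and 5 and 36.3, 38.5 and 52.6 CPM in the male cultures. At 120 mg/dL it measured 42.4, 35.5 and 77.5 CPM in females and 46.5, 39.8 and 60.9 CPM in males. At 320 mg/dL it measured 45.9, 54.3 and 109.6 CPM in females and 47.5, 55.6 and 79.1 CPM in males. With this TMM scaling each culture was highest at 320 mg/dL and lowest in control, and the ranges of the doses overlapped. Scaled to library totals the order turned in 4 cultures. The female culture of set 4, whose library at 320 mg/dL had the lowest TMM factor (0.383), then measured 30.9, 32.8 and 20.7 CPM at 0, 120 and 320 mg/dL. The male cultures of sets 3, 4 and 5 were then lower at 120 mg/dL (29.2, 33.2 and 30.1 CPM) than in control (35.8, 37.4 and 40.9 CPM). The values rested on at least 28 counts, with a median of 148.

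In numbers, EV Kif21a was higher at 320 mg/dL than in control by a log2 fold change of 0.61 ± 0.11 (SE) in the fit with the culture as a block, in 6 of 6 cultures with TMM scaling and 5 of 6 with library totals. This is the contrast that chose the family, so no test is attached. Of all 11880 genes, 10 passed the threshold there (0.0842%, with 0.0168% higher and 0.0673% lower). Over the alternative fits the fold change of Kif21a ran from 0.35 with library totals to 0.67 without set 3. At 120 mg/dL, which shares the control libraries, it was 0.25 ± 0.11, higher in 6 of 6 cultures with TMM scaling, and not called (edgeR adjusted p 0.79), and -0.0089 with library totals.

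In the cells of origin, Kif21a differed between cultures more than between doses. Control cells measured 48.8, 57.2 and 126 CPM in the female cultures of sets 3, 4 and 5 and 73.0, 129 and 161 CPM in the male cultures. At 320 mg/dL the values were 45.8, 51.6 and 173 CPM in females and 76.7, 135 and 185 CPM in males. The log2 fold change was 0.09 ± 0.08 at 320 mg/dL (adjusted p 0.78) and 0.04 ± 0.08 at 120 mg/dL (adjusted p 1.00). The change of its EV:cell ratio was 0.17 ± 0.34 at 120 mg/dL (adjusted p 1, higher in 6 of 6 cultures with TMM scaling), and at 320 mg/dL, given without a test because it holds the contrast that chose the family, 0.49 ± 0.34. None of 40 members was called for a change of the ratio at 120 mg/dL, beside 0.00534% of 18728 genes, with no member at an unadjusted p under 0.05, beside 169 genes, and none called by DESeq2.

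**Figure D5:**
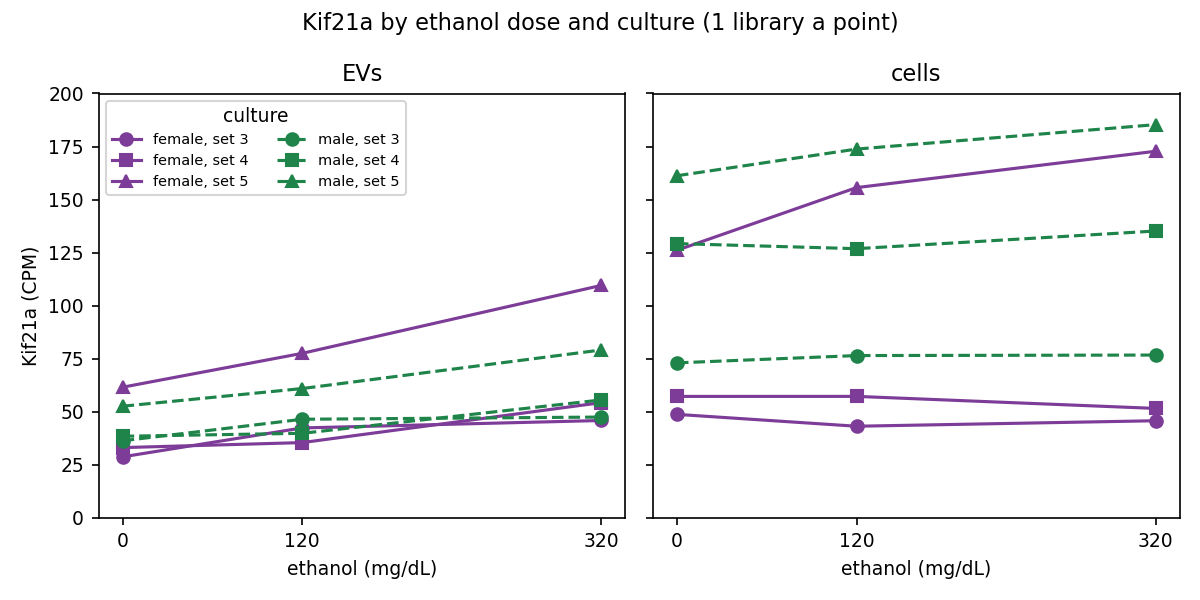
Kif21a level in CPM by ethanol dose in EVs and in cells, with 1 line per culture (purple solid, female; green dashed, male; marker, pregnancy set) and 1 library per point. With TMM scaling all 6 EV lines end higher at 320 mg/dL than they start (5 of 6 with library totals), and in cells the cultures are spread from 43.2 to 185 CPM with flatter lines.

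Other members in EVs are given beside Kif21a. At 120 mg/dL none of 35 members was called, beside 0.00842% of genes, while 4 had an unadjusted p under 0.05, as 744 of 11880 genes did, and DESeq2 called none. The largest of these was a lower level of Kifc1 in 6 of 6 cultures (-0.49 ± 0.13, adjusted p 0.69). At 320 mg/dL, as a description, Kif1c was the member farthest below control, at 289, 698 and 1041 CPM (lowest, median and highest of 6) against 528, 1241 and 1531 CPM, lower in 6 of 6 cultures (log2 fold change -0.73 ± 0.19). The median over the 16 transport kinesins tested was 0.06 and that over the 12 mitotic kinesins 0.11, beside 0.01 for all genes. Mitotic sums in EVs were 398 ± 84.5, 399 ± 115 and 381 ± 146 CPM (SD, n = 6) at 0, 120 and 320 mg/dL, and transport sums, of which Kif1c is the largest part, 1883 ± 428, 1677 ± 343 and 1542 ± 340 CPM.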

How the data were processed

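RNA of 18 EV and 18 cell samples was sequenced as stranded, ribosomal RNA-depleted libraries. Before deposit, the authors removed adapters and duplicates, mapped reads with STAR (build mm39) and used HTSeq, so the deposited values are whole counts per gene without normalization. The submitters' notes also list Trimmomatic and DESeq2 2.11.40.6. Whether HTSeq used strand is not given in the sources used here, and exons of 26 of the 42 members overlap a gene on the other strand. Groups were taken from the sample labels. Members were found by symbol and placed on GRCm39 with GENCODE.

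Counts were used as deposited with edgeR 4.0.16 in R 4.3.3 (filterByExpr with a minimum count of 10, TMM, quasi-likelihood F tests, Benjamini-Hochberg adjusted p under 0.05 over all genes tested). EVs against cells had terms for sex and dose, sexes a term for dose, ethanol the culture as a block, and EV:cell ratios the EV and cell pair as a block. CPM used TMM-scaled totals over all 36 libraries, and log2 CPM a prior count of 1. Alternatives were DESeq2 1.42.0, other scalings, no filter, thinning, blocks and left-out pregnancies or libraries. The fits were also run on simulated data with libraries drawn independently, and those results are not given. That simulation does not cover the dependence of libraries that share a culture in the fits without a culture term.

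Libraries were paired by culture or pregnancy as labelled. As a check, deviations from condition means were correlated. The median r was 0.07 for EVs with their own cells. Within cultures it was 0.19 (EVs) and 0.72 (cells) for 120 mg/dL with control, and 0.21 and 0.62 for 320 mg/dL with control. The median was 0.11 in EVs and 0.38 in cells for the sexes of a pregnancy.

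The members, role lists, partner lists and tests were chosen with earlier results of these data known. Named members were Kif21a, the 5 with the largest changes in each direction that passed and pointed one way in every culture or pregnancy, and the 5 highest per length in cells among mitotic and transport members. Others were named after their values were seen, as were the ratio pairs, the promoter windows and the alternatives without 320 mg/dL or without EV libraries under 2 M counts.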

Additional observations from a re-analysis of the deposited data

Results flagged for a closer look

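Levels of the named members were screened for 1 library far from the other 5 of its location and dose, by Dixon's test. Of 102 groups, 13 were marked, and chance alone marks about 1 in 20. In cells, 8 of the 13 were high values of the male culture of set 3. Of mitotic members these were Kif18a (78.5 CPM against 22.7 to 32.2), Kif11 (105 against 38.3 to 55.6) and Kif23 (48.7 against 17.8 to 25.0) in control, Kif18b (28.7 against 6.70 to 13.8) and Kif23 (42.8 against 19.4 to 26.7) at 120 mg/dL, and Kif11 (82.4 against 48.0 to 59.6) and Kif18b (27 against 7.35 to 13.3) at 320 mg/dL. The eighth was Kif1c at 120 mg/dL (50.5 CPM against 35.9 to 39.8). Kif26a was high in the cells of the female culture of set 5 at 320 mg/dL (1.93 CPM against 0.24 to 0.59). In EVs, the female culture of set 4 was high in control for Kif18a (16.5 CPM against 6.16 to 9.48) and Kif2c (201 against 31.8 to 90.7), and at 120 mg/dL for Kif27 (14.4 against 8.30 to 10.3). Kif20b was low in control EVs of the male culture of set 3 (2.12 CPM against 6.92 to 9.24).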

How the results depend on the processing

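Of the 32 members called between EVs and cells, 23 kept their direction in every alternative, and the 10 named for their size were called in each alternative that gave them a value. The number higher in EVs was 19, and 9 with library totals, 11 without a filter on low counts and 11 with counts summed over doses and the replicate block. Leaving out a pregnancy gave 28 to 32 calls, 16 to 19 of them higher and 12 to 13 lower. Shares of all genes called between EVs and cells in these alternatives are not given, so these counts are not read as results about kinesins. The replicate block changed no other call of a named member in that comparison. By sex in EVs, 2 members were called, and 4 with DESeq2, 0 with library totals, 7 with the replicate block, 0 summed over doses, 0 without EV libraries under 2 M counts, and 0 to 7 when a pregnancy was left out (7 without set 3, 0 without set 5). By sex in cells, none was called, and 4 with DESeq2, 1 with library totals, 1 without a filter, 7 with the replicate block, and 1 to 13 when a pregnancy was left out (13 without set 3). The share of all genes called by sex moves too. With the replicate block it went from 11.1 to 27.1% in EVs and from 5.83 to 17.3% in cells. Shares for the other alternatives are not given, so these counts are not read as results about kinesins. For 320 mg/dL in EVs, the contrast that chose the family, no counts of calls are given. The cause of these changes was not tested. Kif21a, not called in these comparisons, changed sign by sex in EVs (0.18 to -0.0020 with library totals, -0.049 without a filter, -0.028 without set 5), at 120 mg/dL in EVs (0.25 to -0.0089 with library totals), in cells at 120 mg/dL (-0.018 with library totals, -0.047 to 0.109 when a pregnancy was left out) and 320 mg/dL (-0.016 with library totals, -0.021 to 0.161 when a pregnancy was left out), negative without set 5 in both, and for ethanol by sex (0.031 without the replicate block). Totals under 2 M counts in 6 EV libraries limit the low members most.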
